A study of Mus musculus with 4 samples.

Results

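The interferon-inducible GTPases described here are 9 mouse genes of a pair of families: Iigp1, Tgtp1, Tgtp2, Igtp, Irgm1 and Irgm2 of the immunity-related GTPases (IRG), and Gbp2, Gbp3 and Gbp7 of the guanylate-binding proteins (GBP). They were listed by name, with earlier results of these data known, and all 9 are among the 33696 genes of both expression matrices. The cells were CD4+CCR7+ thymocytes, from Cd4Cre Cgasfl/fl mice (Cgas KO) and from Cd4Cre mice (WT), with 1 expression library and 1 T cell receptor library per genotype. Both genotypes carry the Cd4-driven Cre, which acts in T-lineage cells from the double-positive stage on, so only T-lineage cells lose the floxed alleles, and other thymic cells of the Cgas KO mice keep theirs. Cgas encodes the cytosolic DNA sensor cGAS. No source used here gives the number, age or sex of the mice.

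Interferons bind receptors that activate JAK kinases and STAT transcription factors. Type I interferon acts mainly through the ISGF3 complex at interferon-stimulated response elements (ISRE), and interferon-gamma through STAT dimers at gamma-activated sites (GAS). IRG and GBP proteins are large GTPases that gather on the vacuoles of intracellular pathogens. Within the IRG family Iigp1, Tgtp1 and Tgtp2 belong to the effectors that load onto such vacuoles, whereas Igtp, Irgm1 and Irgm2 are regulators that keep the effectors inactive on the cell's own membranes. In the thymus, single-positive cells pass from a semi-mature to a mature stage in the medulla, and interferon signalling there is a known part of late maturation.

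RefSeq promoter windows (build GRCm38.p6, 250 bases before each annotated start and 50 bases from it on) were matched by symbol for 8 of the 9 genes. Iigp1 is named only. The ISRE core was searched on both strands as GAAA, any 2 bases and GAAA again, which on the other strand is TTTC, any 2 bases and TTTC. GAS was searched as TTCNNNGAA (N, any base), which reads the same on both strands. The motifs could overlap, and where 2 ISRE cores did so both were counted. The stretches around the ISRE core matches are printed because they show what the promoters share. They are written 5′ to 3′ on the gene's strand, and capitals mark the ISRE core and GAS matches.
Tgtp1, chr11:48992299-48992348, minus strand: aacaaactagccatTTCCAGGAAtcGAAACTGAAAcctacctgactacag
Tgtp2, chr11:49064258-49064307, minus strand: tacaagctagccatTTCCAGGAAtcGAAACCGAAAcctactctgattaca
Igtp, chr11:58199497-58199546, plus strand: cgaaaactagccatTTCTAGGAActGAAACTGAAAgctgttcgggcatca
Irgm1, chr11:48871420-48871475, minus strand: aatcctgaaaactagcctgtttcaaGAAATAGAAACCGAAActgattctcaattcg
Irgm2, chr11:58214888-58214937, plus strand: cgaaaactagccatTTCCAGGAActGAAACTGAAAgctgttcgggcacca
Gbp2, chr3:142620579-142620628, plus strand: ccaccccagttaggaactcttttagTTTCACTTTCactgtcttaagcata
Gbp3, chr3:142559974-142560029, plus strand: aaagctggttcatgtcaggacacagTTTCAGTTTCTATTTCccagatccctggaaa
Gbp7, chr3:142530258-142530307, plus strand: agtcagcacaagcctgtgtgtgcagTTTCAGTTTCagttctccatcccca

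An ISRE core match lay in a window of 8 of 8 members, counted per gene, against 3.44% of all 32851 promoter windows. It lay on the gene's own strand in the 5 IRG genes and on the other strand in the 3 GBP genes. Irgm1 and Gbp3 each held 2 overlapping ISRE core matches. Gbp3 had 2 windows, and the second held no match of either motif. A GAS match lay in a window of 5 of the 8 members, against 8.30% of all windows. Both motifs lay together in 5 members, against 0.454% of all windows. In Tgtp1, Tgtp2, Igtp and Irgm2 the GAS match ended 2 bases before the ISRE core, whereas the 2 GAS matches of Gbp7 ended 44 and 25 bases before it. No GAS match was found in the Irgm1, Gbp2 and Gbp3 windows. The promoters of Tgtp1 and Tgtp2 were identical at 91.9% of 161 aligned bases, and those of Igtp and Irgm2 at 92.1% of 265. Each window is 300 bases long, and bases outside the aligned parts do not enter these values. These matches describe letters in a window and no binding was measured.

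**Figure D1:**
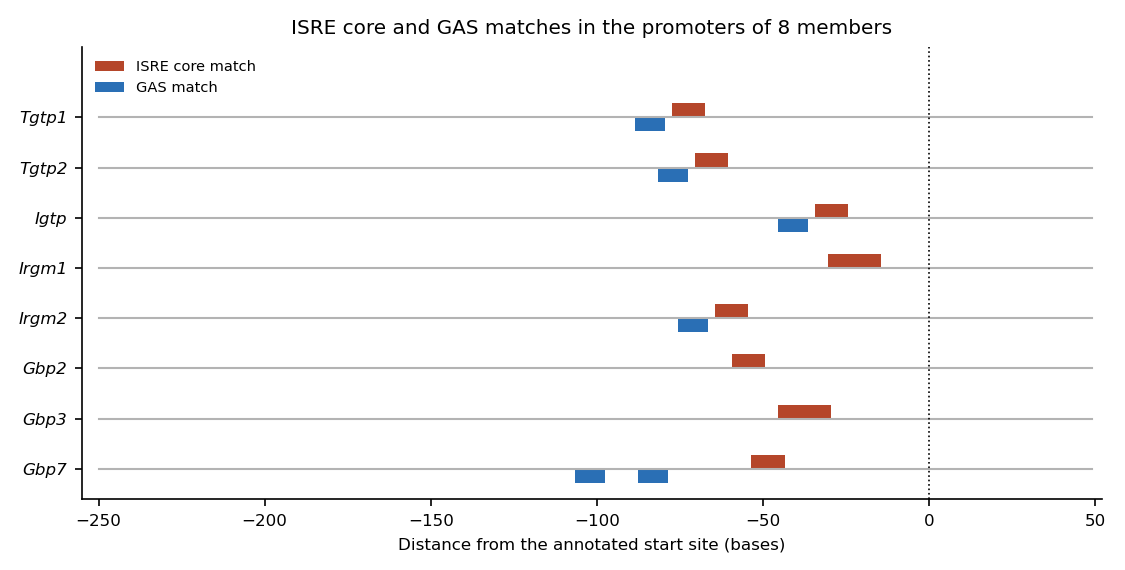
Positions of ISRE core (upper bars) and GAS (lower bars) matches in the promoter windows of 8 members, as distance in bases from the annotated start site, which is counted as 0. ISRE core matches lie within 77 bases before the start in each gene, and in 4 IRG genes a GAS match stands directly before them.

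Values are UMIs, counts of distinct captured RNA molecules, summed over barcodes and given per 1000000 UMIs of those barcodes (CPM). With 1 library per genotype there is no replicate check and no test. Each interval is a 95% interval for counting error only, and it holds neither the spread between mice nor the spread between barcodes. The assay counts tags at the 3′ end of transcripts, so levels are compared within a gene and not between genes. Barcodes with at least 2000 UMIs and 500 genes and at most 10% mitochondrial UMIs were kept. These were 14381 in Cgas KO, with a median of 4507 UMIs, and 12929 in WT, with a median of 4943 UMIs, and 276 barcode sequences occurred in both. Cd3e, Cd3d, Trac, Cd4 and Ccr7, which mark the sorted cells, were present at 179.96 to 1128 CPM in Cgas KO and 172 to 1156 CPM in WT. Cgas itself had 221 UMIs in Cgas KO (2.92 CPM) and 337 in WT (4.49 CPM), a ratio of 0.651 (0.547 to 0.773). A 3′ tag can lie outside the floxed part of the gene, so this checks neither the deletion nor the labels. Barcodes with 2 or more productive beta chains, which can be doublets, made up 9.58% in Cgas KO and 9.0% in WT, and they were kept.

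Barcodes were sorted by marker genes into 9 states. Rag1 marked double-positive-like barcodes, Cd8a and Cd8b1 with or without Cd4 the co-expressing and CD8-lineage ones, Foxp3 regulatory T cells (Treg) and proliferation genes the cycling ones. Of the remaining CD4 barcodes, those with Itm2a and no S1pr1 UMI were called semi-mature, those with S1pr1 and no Itm2a mature, and the rest intermediate. Genes outside the gates followed them in most cases. Of 8 genes of mature thymocytes 7 were higher in mature than in semi-mature barcodes in each library, Il7r being the exception, and of 7 genes of immature ones 5 were lower in Cgas KO, all but Cd69 and Id3, and 7 in WT. The ninth gate, on MHC class II genes, was meant for dendritic cells. Its 11 Cgas KO and 12 WT barcodes had 494 and 352 CPM of the B cell gene Cd79a, and Itgax, Xcr1 and Siglech together had 0 UMIs in Cgas KO and 1 in WT, so they are called MHC class II-high here.

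Along the CD4 path the summed level of the 9 genes was lowest in double-positive-like and semi-mature barcodes and highest in mature ones. In Cgas KO it was 319.7 CPM in double-positive-like, 436 in co-expressing, 349.5 in semi-mature, 521 in intermediate and 579.9 CPM in mature barcodes. In WT the same states had 332, 499.8, 414, 586 and 681 CPM. The co-expressing barcodes thus stood above the semi-mature ones in both libraries. Outside that path, CD8-lineage barcodes had 413 CPM in Cgas KO and 455 in WT, Treg 511 and 552, and cycling barcodes, at 282 and 354 CPM, were the lowest of the T-lineage states in Cgas KO and below all but the double-positive-like ones in WT. The MHC class II-high barcodes had 15 member UMIs in Cgas KO and 57 in WT, of which 4 and 25 came from Gbp2.

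**Figure D2:**
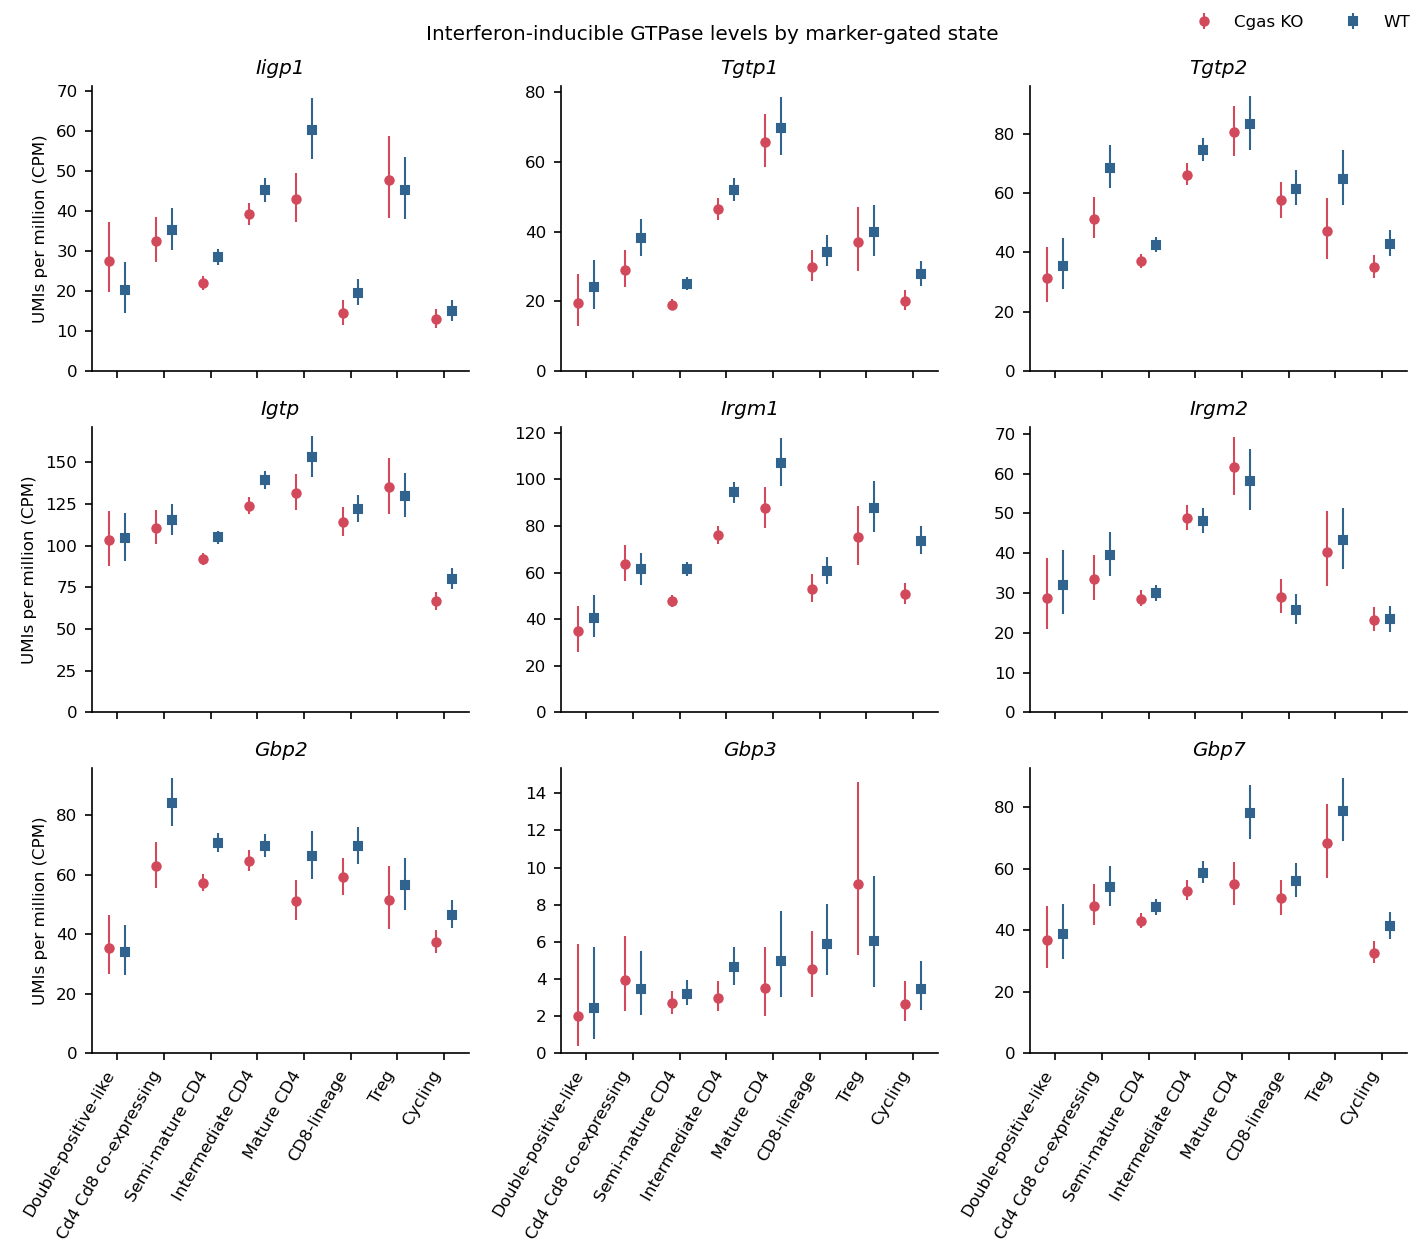
Level of each member (CPM, linear axis from 0) in 8 marker-gated states, with Cgas KO as circles left of WT squares; bars are 95% Poisson intervals. Tgtp1, Tgtp2, Irgm1 and Irgm2 peak in mature CD4 barcodes in both libraries, whereas Gbp2 has no peak there.

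The first comparison asked how the genes differ between mature and semi-mature CD4 thymocytes. The IRG genes stood higher in mature cells, led by the effector Tgtp1, while the GBP genes had ratios nearer to 1, apart from Gbp7 and the thinly counted Gbp3 in WT. The fold used was 1.5, over genes that had 100 UMIs or more when both states were added. In Cgas KO 5 of the 8 members measured so were higher, against 5.85% of all genes measured, and in WT 7 of 9, against 7.06%. None was lower by that fold, against 10.8% of all genes measured in Cgas KO and 11.3% in WT. The median ratio of the members was 1.89 in Cgas KO and 1.75 in WT, and that of all genes measured was 0.930 and 0.940.

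Tgtp1 had 65.8 CPM in mature and 19.0 in semi-mature barcodes of Cgas KO, a ratio of 3.47 (3.0 to 4.0), and 69.8 against 25 CPM in WT, a ratio of 2.79 (2.42 to 3.21). Its near-copy Tgtp2 had 80.6 against 37.1 CPM in Cgas KO, a ratio of 2.17 (1.92 to 2.45), and 83.2 against 42.6 CPM in WT, a ratio of 1.95 (1.72 to 2.21). No source used here says how the authors' counting treated reads that match both copies, and the split between them is uncertain. Their sum had ratios of 2.61 (2.38 to 2.86) in Cgas KO and 2.26 (2.06 to 2.48) in WT. The regulator Irgm2 had 61.6 against 28.6 CPM in Cgas KO, a ratio of 2.15 (1.87 to 2.47), and 58.2 against 29.9 CPM in WT, a ratio of 1.94 (1.67 to 2.25). Iigp1, another effector, had 43.0 against 22.0 CPM in Cgas KO, a ratio of 1.95 (1.65 to 2.30), and 60.4 against 28.5 CPM in WT, a ratio of 2.12 (1.82 to 2.45). Irgm1 and Igtp differed less. Irgm1 had 87.6 against 47.9 CPM in Cgas KO, 1.83-fold, and 107 against 61.4 CPM in WT, 1.75-fold. Igtp had 132 against 91.9 CPM in Cgas KO, 1.43-fold, and 153 against 105 CPM in WT, 1.46-fold.

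Gbp2, a GBP that coats pathogen vacuoles, did not differ beyond its counting error. It had 51.0 CPM in mature and 57.3 in semi-mature barcodes of Cgas KO, and 66.1 against 70.6 CPM in WT, with ratios of 0.891 (0.772 to 1.02) and 0.936 (0.821 to 1.06), so both intervals include 1. Gbp7 had 55.0 against 43.1 CPM in Cgas KO, a ratio of 1.28 (1.11 to 1.46), and 78.0 against 47.6 CPM in WT, a ratio of 1.64 (1.44 to 1.85). Gbp3 was counted 16 times in mature and 76 times in semi-mature barcodes of Cgas KO, and 20 and 87 times in WT. Its ratios of 1.31 (0.711 to 2.26) in Cgas KO and 1.54 (0.895 to 2.52) in WT have intervals that include 1, although the WT value is past the fold. Summed over each family, the mature over semi-mature ratio was 1.91 (1.82 to 2.0) for the 6 IRG genes and 1.06 (0.964 to 1.17) for the 3 GBP genes in Cgas KO. In WT it was 1.82 (1.73 to 1.91) and 1.23 (1.12 to 1.34). The Cgas KO ratio divided by the WT ratio was above 1 for Tgtp1, at 1.24 (1.02 to 1.51), and below 1 for Gbp7, at 0.779 (0.648 to 0.937), and for the other 7 genes its counting interval included 1.

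Isg15, which encodes a ubiquitin-like protein and responds strongly to type I interferon, was at 236 CPM in mature and 238 in semi-mature barcodes of Cgas KO, and at 234 and 248 CPM in WT. Among barcodes with no Isg15 UMI the summed members were at 439 CPM in mature and 237 in semi-mature barcodes of Cgas KO, a ratio of 1.85 (1.73 to 1.98), and at 515 and 261 CPM in WT, a ratio of 1.97 (1.85 to 2.11). The Iigp1 ratio in these Cgas KO barcodes was 3.04 (2.28 to 4.02). When barcodes were first thinned to 2000 UMIs the Tgtp1 ratio in Cgas KO was 2.05. With gates from Klf2 and Cd69 in place of S1pr1 and Itm2a, 4 of 9 members were past the fold in WT, and Gbp3 had a ratio of 0.979. The middle of all genes lay 0.11 below 0 on the log2 scale in Cgas KO and 0.09 in WT. Of all genes past the fold, 35.2% in Cgas KO and 38.5% in WT were higher in mature barcodes, and 49.9% and 51.8% were when levels were scaled to that middle by median-of-ratios factors. The summed member ratio was then 1.78 in Cgas KO and 1.75 in WT. Hemoglobin UMIs (Hbb-bs and Hba-a1) summed to 486 CPM in mature and 3.49 in semi-mature barcodes of Cgas KO, and to 2.23 and 1.81 CPM in WT. Of the Cgas KO UMIs, 4196 of 4473 lay in 2 barcodes, 1 of them in the mature gate, and without these the summed member ratio was 1.66. Of the B cell genes, Ighm was at 106 CPM in mature and 49.9 in semi-mature barcodes of Cgas KO, and at 73.5 and 37.7 CPM in WT. Cd79a was at 1.77 and 1.07 CPM in Cgas KO and 3.96 and 1.07 CPM in WT, and Ms4a1 had 0 UMIs in mature and 1 in semi-mature barcodes of each library. The part of B cell RNA was not tested.

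The second comparison is the one between genotypes. Of the 9 genes, 8 had a lower level in Cgas KO than in WT with ratios between 0.796 and 0.888 and counting intervals below 1, and Irgm2 was the exception. The share of all genes with counting intervals below 1 is not given, so this count has no background. A gene counted as past the fold at 1.2, and 3 of 9 members were lower by that much, Iigp1, Irgm1 and Gbp3, against 5.83% of the 13266 genes measured. None was higher, against 6.07%. The median member ratio was 0.843, or -0.25 on the log2 scale, and that of all genes measured was 1.0. The middle 95% of all genes measured had ratios between 0.739 and 1.32, and the ratio of every single member lay inside this range. All 9 summed to 412 CPM in Cgas KO and 477 in WT, a ratio of 0.863 (0.850 to 0.877). In such sums fewer cells with the RNA and less RNA per cell cannot be told apart.

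Irgm1 had 59.6 CPM in Cgas KO (57.8 to 61.3) and 73.7 CPM in WT (71.8 to 75.7), a ratio of 0.808 (0.776 to 0.840). Iigp1 had 27.3 CPM in Cgas KO (26.1 to 28.5) and 32.9 CPM in WT (31.6 to 34.3), a ratio of 0.828 (0.781 to 0.878). Gbp3, the least counted member, had 3.21 CPM in Cgas KO (2.82 to 3.64) and 4.04 CPM in WT (3.60 to 4.52), a ratio of 0.796 (0.669 to 0.945). For Irgm1 and Iigp1 the counting intervals of the 2 libraries are well apart, and for Gbp3 they overlap slightly. Gbp2 had 56.1 CPM in Cgas KO and 66.9 in WT, and Gbp7 46.3 and 53.5 CPM, with ratios of 0.839 (0.805 to 0.874) and 0.866 (0.827 to 0.906). Tgtp1 had 30.9 CPM in Cgas KO and 36.7 in WT, and Tgtp2 49.5 and 56.9 CPM, with ratios of 0.843 (0.798 to 0.891) and 0.870 (0.832 to 0.909). Igtp, the most counted member, had 103 CPM in Cgas KO and 116 in WT, a ratio of 0.888 (0.861 to 0.916). Irgm2 had 35.7 CPM in Cgas KO (34.4 to 37.1) and 36.0 CPM in WT (34.7 to 37.4), a ratio of 0.991 (0.939 to 1.05), so the ratio of Irgm1 lies outside its interval.

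**Figure D3:**
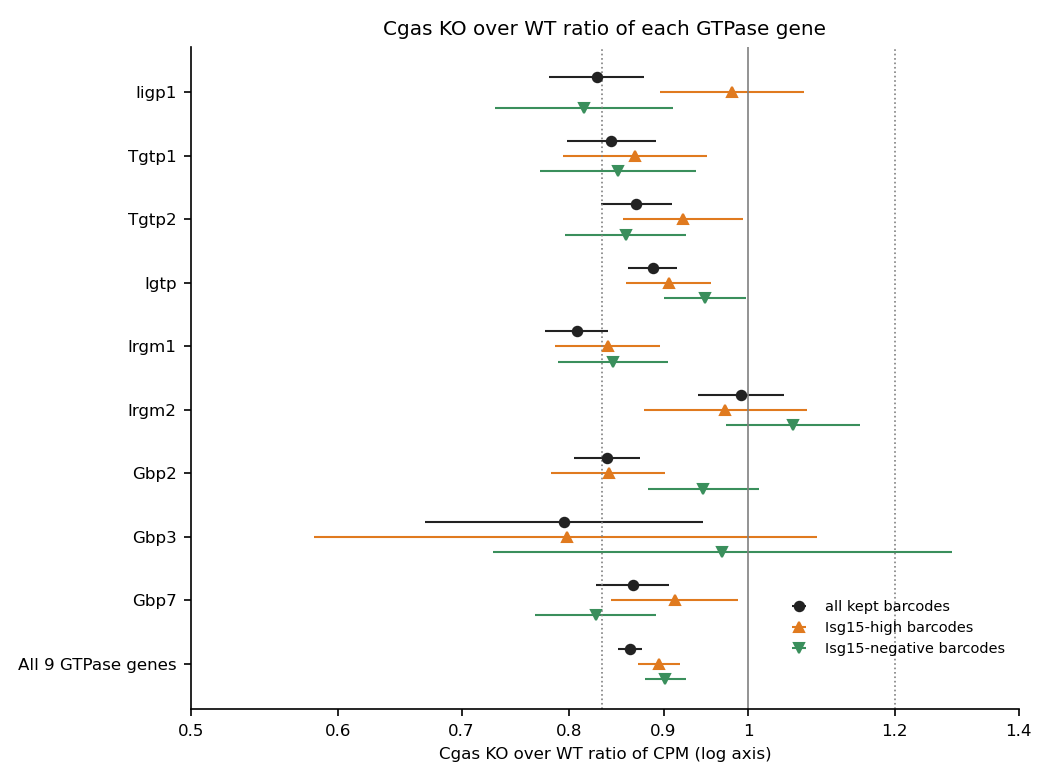
Cgas KO over WT ratio of CPM (log axis) for each member and their sum in all kept, Isg15-high and Isg15-negative barcodes, with 95% conditional counting intervals; the solid line is 1 and the dotted lines the 1.2-fold threshold and its inverse. Irgm1 lies below 1 in all 3 sets of barcodes, and the Irgm2 intervals include 1 in each.

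The lower level in Cgas KO was not tied to one state. The summed ratio was below 1 in each of 8 T-lineage states, between 0.795 (0.755 to 0.838) in cycling and 0.962 (0.854 to 1.08) in double-positive-like barcodes, and the interval lay below 1 in 6 of them. Tgtp1, Tgtp2 and Gbp7 were lower in 8 of 8 states, with intervals below 1 in 4, 5 and 4. Irgm1 was lowest relative to WT in cycling barcodes, at 50.7 CPM in Cgas KO and 73.7 in WT, a ratio of 0.688 (0.610 to 0.776). Gbp7 was lowest in mature CD4 barcodes, at 55.0 CPM in Cgas KO and 78.0 in WT, a ratio of 0.705 (0.594 to 0.835). In the same barcodes Iigp1 had 43.0 CPM in Cgas KO and 60.4 in WT, a ratio of 0.712 (0.587 to 0.864), whereas Tgtp2 had 80.6 and 83.2 CPM, a ratio of 0.968 (0.833 to 1.13). Irgm2 was lower in 5 states and higher in 3, with no interval away from 1. No member had an interval above 1 in any of the 8 states. The states come from the same 2 libraries, so they are not independent repeats of the genotype difference. The share of all genes with such counts over states is not given here.

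Isg15 had a ratio nearer to 1 than 8 of the 9 members, Irgm2 being the exception. It was at 232 CPM in Cgas KO and 243 in WT, a ratio of 0.952 (0.933 to 0.972). Barcodes with at least 3 Isg15 UMIs, called Isg15-high, were 14.5% in Cgas KO (13.9% to 15.1%) and 16.9% in WT (16.3% to 17.6%). The part of the lower median depth of Cgas KO in this share was not tested. Within Isg15-high barcodes the summed members had 743 CPM in Cgas KO and 830.4 in WT, a ratio of 0.895 (0.872 to 0.918), with Isg15 itself at 878 CPM in Cgas KO and 839 in WT. Within barcodes with no Isg15 UMI they had 296 and 329 CPM, a ratio of 0.902 (0.879 to 0.925). Among Isg15-high barcodes the intervals of Iigp1, with a ratio of 0.980 (0.896 to 1.07), Irgm2 and Gbp3 included 1. With Cgas KO barcodes weighted to the WT mix of Isg15 counts, a choice made after seeing the data, 1 member was lower by 1.2-fold, and among barcodes of at least 4000 UMIs 6 were. The share of all genes past the fold in these settings is not given, so these counts have no background. The 9 genes stood higher in free RNA, read from barcodes with at least 20 and under 200 UMIs, than in kept barcodes, at 522 CPM in Cgas KO and 641 in WT, 1.27 and 1.34 times the kept level. Gbp7 was at 2.01 and 1.92 times its kept level there. The 7 dendritic cell and macrophage markers summed to 0.926 CPM in Cgas KO and 3.39 in WT, in which Siglech was at 0 in both and Xcr1 at 0 in WT. Of the B cell genes, Ighm was at 76.4 CPM in Cgas KO and 60.9 in WT, Cd79a at 1.85 and 2.24 CPM, and Ms4a1 at 0.119 and 0.120 CPM. The part of free RNA and of other cells in the genotype difference was not tested. In barcodes within 200 UMIs above the depth threshold the 9 genes had 446 CPM in Cgas KO and 381 in WT, and in those within 200 UMIs below it 398 and 408 CPM.

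The third comparison set Isg15-high against Isg15-negative barcodes, with Isg15 standing for the interferon response of a cell. Every member was higher in Isg15-high barcodes of both libraries. At 2-fold, 7 of 9 were higher in Cgas KO, against 1.07% of the 11401 genes measured, and 8 of 9 in WT, against 0.781% of 11394. The exceptions were Irgm2 and Gbp3 in Cgas KO and Irgm2 in WT. None was lower by that fold, against 0.561% of all genes measured in Cgas KO and 0.404% in WT. The members' median ratio was 2.43 in Cgas KO and 2.51 in WT, and that of all genes measured was 0.968 and 0.966.

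Iigp1 differed most. It had 65.6 CPM in Isg15-high and 15.5 in Isg15-negative barcodes of Cgas KO, a ratio of 4.23 (3.82 to 4.70), and 66.9 against 19.0 CPM in WT, a ratio of 3.52 (3.20 to 3.88). Tgtp1 had 61.3 against 20.4 CPM in Cgas KO, a ratio of 3.0 (2.72 to 3.31), and 70.5 against 24 CPM in WT, a ratio of 2.94 (2.69 to 3.21). Both are effectors, and the regulator Irgm1 came next in each library, with ratios of 2.77 (2.58 to 2.97) in Cgas KO and 2.79 (2.62 to 2.97) in WT. Tgtp2 had 91.3 against 33.8 CPM in Cgas KO and 99.0 against 39.4 CPM in WT, ratios of 2.70 and 2.51. Igtp had 179 against 77.3 CPM in Cgas KO and 197 against 81.6 CPM in WT, ratios of 2.31 and 2.42. Gbp2 had 96.2 against 41.7 CPM in Cgas KO and 115 against 44.0 CPM in WT, ratios of 2.31 and 2.60, and Gbp7 had 80.9 against 33.3 CPM in Cgas KO and 88.6 against 40.3 CPM in WT, ratios of 2.43 and 2.20. Gbp3 rested on 72 and 103 UMIs in Cgas KO and 103 and 99 in WT, with ratios of 1.95 (1.42 to 2.66) and 2.37 (1.78 to 3.15), and its WT ratio was 4.02 after thinning to 2000 UMIs. Irgm2 was the member that differed least, with 50.5 against 30.9 CPM in Cgas KO, a ratio of 1.63 (1.49 to 1.79), and 52 against 29.3 CPM in WT, a ratio of 1.78 (1.62 to 1.95). Dividing the Cgas KO ratio by the WT ratio gave 1.2 (1.05 to 1.38) for Iigp1 and 0.889 (0.805 to 0.981) for Gbp2, and intervals that included 1 for the other 7 genes.

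The summed level climbed with the Isg15 count rather than switching at the threshold. Summed over the 9 genes it was 296, 374, 474, 578, 763 and 1221 CPM in Cgas KO barcodes with 0, 1, 2, 3 to 4, 5 to 9 and 10 or more Isg15 UMIs. The WT barcodes of the same bins had 329, 436, 528, 660.2, 824 and 1259.9 CPM. Just inside the threshold, at 3 UMIs, the sum was 558 CPM in Cgas KO and 591 in WT, and just outside, at 2 UMIs, it was 474 and 528 CPM. This step lay in the 6 IRG genes, with ratios of 1.24 (1.17 to 1.32) in Cgas KO and 1.16 (1.09 to 1.23) in WT. The 3 GBP genes had ratios of 1.01 (0.908 to 1.12) and 1.02 (0.920 to 1.13) there. Irgm1 stood lower in Cgas KO in each bin, with 40.9, 53.5, 68.3, 84.0, 127 and 173 CPM in Cgas KO against 48.4, 66.3, 80.9, 96.3, 143 and 214 CPM in WT. Not all members did so. In the last bin the summed Cgas KO over WT ratio was 0.969 (0.921 to 1.02). Iigp1, Tgtp2, Igtp, Gbp3 and Gbp7 had ratios above 1 there, and Tgtp1, Irgm1, Irgm2 and Gbp2 below 1. Only the Irgm1 interval, 0.707 to 0.921, lay away from 1. In Irgm2 the climb was shallow, from 30.9 to 56.0 CPM between the first and the last bin of Cgas KO and from 29.3 to 64.4 CPM in WT.

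**Figure D4:**
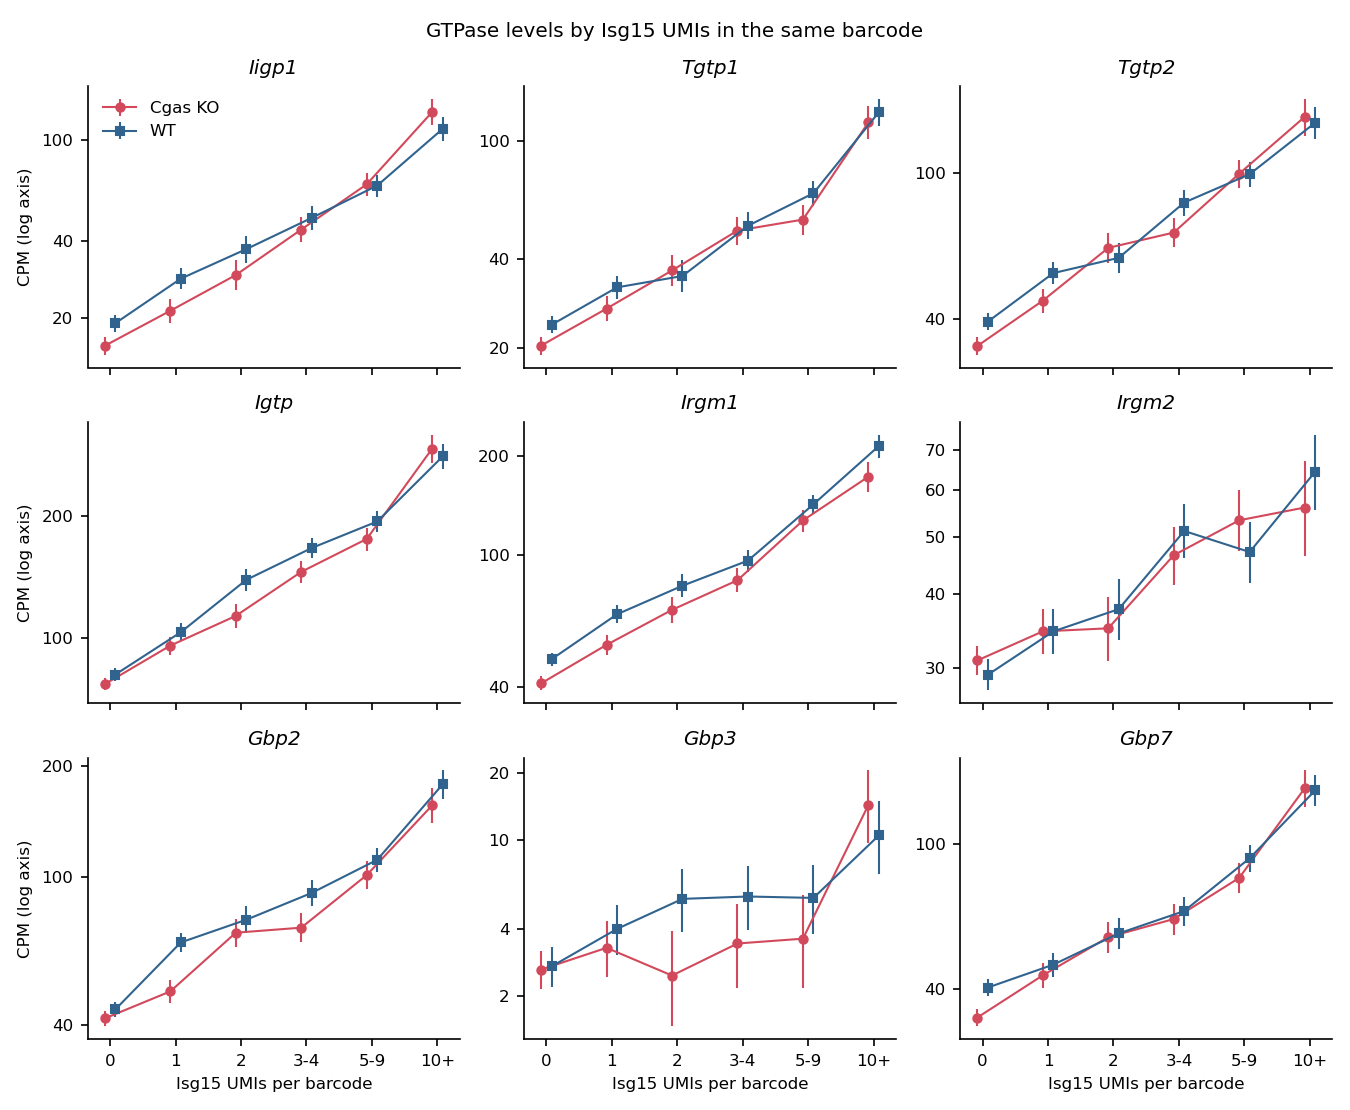
Level of each member (CPM, log axis) in barcodes grouped by their own number of Isg15 UMIs, with Cgas KO as circles and WT as squares; bars are 95% Poisson intervals. Every member is higher in the last bin than in the first in both libraries, Iigp1 the most and Irgm2 the least.

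The summed members were higher in Isg15-high barcodes of each of the 8 T-lineage states. The ratio lay between 2.15 (1.92 to 2.40) in co-expressing and 3.72 (2.96 to 4.66) in double-positive-like barcodes of Cgas KO, and between 2.07 (1.98 to 2.17) in intermediate and 3.27 (3.13 to 3.42) in semi-mature CD4 barcodes of WT. Single members did not all follow in every state. Irgm2 had a ratio of 0.985 (0.663 to 1.43) in mature CD4 barcodes of Cgas KO, and Gbp3, with 2 Isg15-high UMIs in Treg of each library, had 0.676 in Cgas KO and 0.573 in WT. Semi-mature Isg15-negative barcodes were low, at 237 CPM in Cgas KO and 261 in WT, and mature Isg15-high barcodes reached 1028 and 1286 CPM. Isg15-high barcodes were deeper, with medians of 5429 UMIs in Cgas KO and 5885.5 in WT, against 4183.5 and 4608 in Isg15-negative ones, and 15.3% and 13.6% of them had 2 or more beta chains, against 7.47% and 6.46%. With exactly 1 beta chain the summed ratio was 2.83 in Cgas KO and 2.81 in WT. Zbtb16 and Tbx21, markers of innate-like T cells, summed to 8.20 CPM in Isg15-high and 1.2 in Isg15-negative barcodes of Cgas KO, and 5.12 and 1.81 CPM in WT. Without the 49 Cgas KO and 39 WT barcodes that held a UMI of either gene, the summed ratio was 2.52 in both libraries. The 7 dendritic cell and macrophage markers summed to 0.713 CPM in Isg15-high and 0.894 in Isg15-negative barcodes of Cgas KO, and 3.81 and 2.58 CPM in WT, with Siglech at 0 in all 4. The 3 natural killer genes summed to 0.0713 CPM in Isg15-high and 0.383 in Isg15-negative barcodes of Cgas KO, and 1.31 and 0.796 CPM in WT, with Ncr1 at 0 in all 4, and their part was not tested.

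Other lists place these ratios. A list of 20 further GTPase or GTPase-related genes, not limited to the IRG and GBP families, was chosen like the members with earlier results known. Of the 20, 14 were measured in Cgas KO and 15 in WT. In each library 6 were 2-fold higher in Isg15-high barcodes, with medians of 1.955 and 1.944. Mx1, a dynamin-like antiviral GTPase, had the highest ratio at 19.4 (13.1 to 29.8) in Cgas KO and 10.7 (8.07 to 14.4) in WT, and Irgq, an IRG-related gene, the lowest at 0.840 and 0.898. Among the others, Gbp6 had ratios of 3.12 and 3.15, Gbp10 of 2.78 and 3.06, Ifi47 of 2.03 and 1.94, and Gbp8 of 1.26 and 1.25. The 24 measured type I interferon-stimulated genes had medians of 3.44 and 3.12, with 23 and 21 past the fold and Rsad2, which encodes the antiviral enzyme viperin, highest at 16.8 and 16.2. The 9 measured genes that lean to interferon-gamma, among them immunoproteasome and peptide transport genes, had medians of 1.48 and 1.46 and none past the fold. Of 18 receptor and signalling genes 4 were past it in each library, with medians of 1.15 and 1.12, led by Usp18, an inhibitor of interferon receptor signalling, at 7.46 and 5.86.

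**Figure D5:**
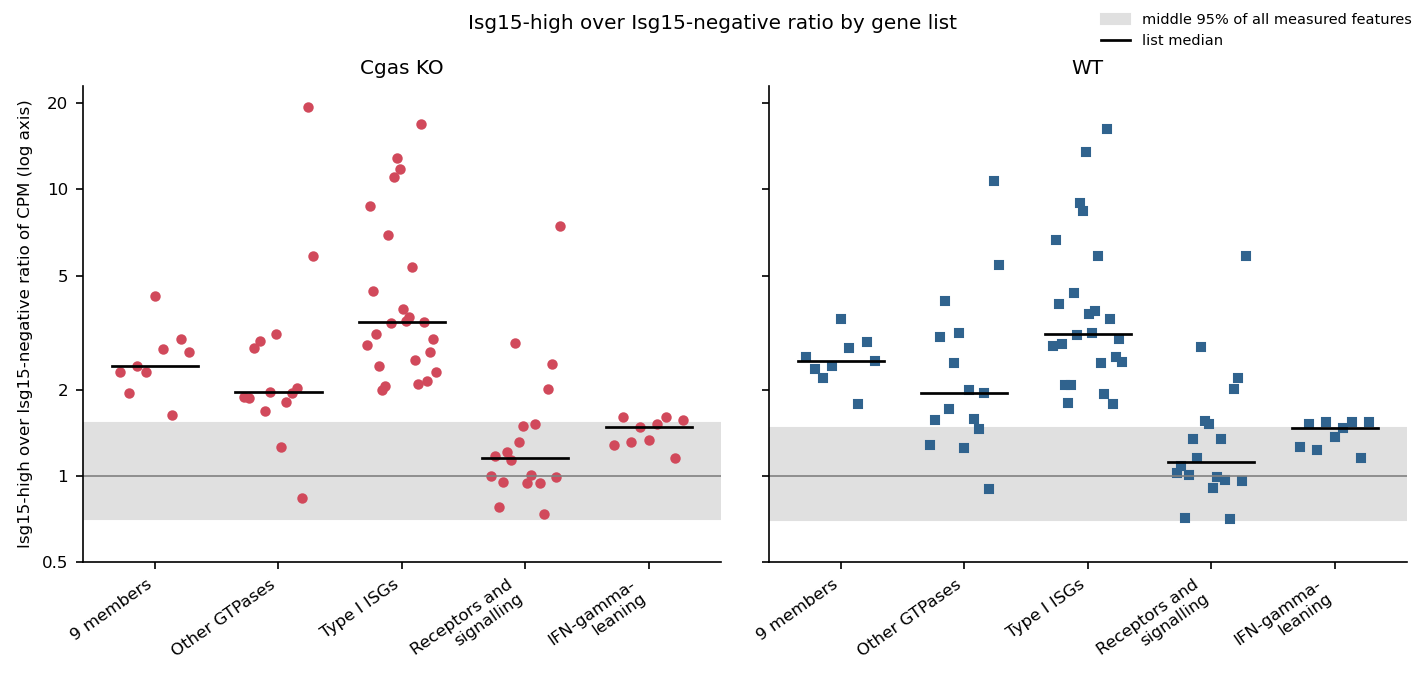
Isg15-high over Isg15-negative ratio of CPM (log axis) for the 9 members and 4 further lists, in Cgas KO (left) and WT (right); lines are list medians and the grey band holds the middle 95% of all measured genes. The members lie above the band, and their medians, 2.43 in Cgas KO and 2.51 in WT, stand between those of the type I interferon-stimulated genes (ISGs) and of the genes that lean to interferon-gamma.

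Between the genotypes, 5 of the 15 measured further GTPases were 1.2-fold lower in Cgas KO and none higher, with a median ratio of 0.879. Gbp10 was lowest, with 13.4 CPM in Cgas KO and 20.8 in WT, a ratio of 0.646 (0.596 to 0.699), and Mx1 had 3.73 and 5.37 CPM, a ratio of 0.694 (0.594 to 0.810). In the type I list of 25 genes, 6 were past 1.2-fold lower and 2 past 1.2-fold higher, and 4 of the 25 ratios lay above 1. The list's median was 0.926, and its ratios lay between 0.705 for Oas1a, a sensor of double-stranded RNA, and 1.45 for Cmpk2, a mitochondrial nucleotide kinase. Of 18 receptor and signalling genes 1 was lower, the transcription factor gene Irf8 at 0.735, and of 10 that lean to interferon-gamma none passed the fold in either direction, with medians of 0.975 and 0.928. Between mature and semi-mature barcodes 6 of 12 further GTPases were 1.5-fold higher in Cgas KO and 7 of 13 in WT, and 0 and 1 were lower by that fold. The lower one was Irgq, with ratios of 0.759 (0.470 to 1.17) in Cgas KO and 0.528 (0.290 to 0.893) in WT. Gm12185 had ratios of 2.70 in Cgas KO and 3.18 in WT. Also among the higher ones were 9930111J21Rik1, with ratios of 2.95 in Cgas KO and 3.17 in WT, and its near-copy 9930111J21Rik2, with 2.76 and 2.36, and reads may be split between the copies.

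At an equal depth of 2000 UMIs most barcodes held no member or only 1, and this depends on that depth. Exactly 2 members were then held by 1614 of 14381 barcodes in Cgas KO and 1551 of 12929 in WT. After each barcode was thinned to 2000 UMIs, 46.6% in Cgas KO (45.7% to 47.4%) and 49.2% in WT (48.3% to 50.1%) had a UMI of any of the 9 genes, and 6.31% and 7.71% of 3 or more. Unthinned, the shares with any were 69.5% and 74.6%. In thinned Isg15-high barcodes 68.1% in Cgas KO and 69.1% in WT had any, against 39.4% and 41.6% of Isg15-negative ones, and 18.1% and 19.5% had 3 or more, against 3.61% and 4.22%. No gated state is known to lack these genes, so a background share for free RNA was not available. The 10% of barcodes with the most member UMIs held 42.9% of them in Cgas KO and 43.2% in WT. Isg15-high barcodes held 33.4% and 37.2% of the member UMIs but 18.5% and 21.3% of all UMIs, and Isg15-negative ones 37.3% and 33.5% of the member UMIs.

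Over 18 points, 9 states in each of the 2 libraries, the genes whose levels followed the members' mean profile most closely were Pea15a (r = 0.951), Jun (0.939), Clec2d (0.929), Igflr1 (0.929) and Trim12c (0.928). The points share libraries and depth, and 2 of them are the small MHC class II-high groups. Over the other 16 points, a choice made after seeing the data, the 5 closest included Ipcef1 (0.971), Igflr1 (0.966), Nlrc5 (0.965) and Usp18 (0.964), and of the 5 named first only Igflr1 was among them. Over the 18 points Gbp2 correlated with the mean of the other members by 0.082 and Gbp3 by -0.22, and the other 7 by between 0.561 and 0.863. Over the 16 points each member correlated with the mean of the others by between 0.582 for Gbp2 and 0.917 for Gbp7.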

How the data were processed

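Single-cell RNA libraries of 3′ tags, per the labels' protocols, and T cell receptor libraries came from 1 sample per genotype. The authors deposited UMI counts per gene and barcode. Cell Ranger 8.0.1 wrote the matrices, per the file headers, whereas Cell Ranger 7.0 is listed, with Seurat 5.1.0 and the build mm10, per the submitters' processing notes. The treatment of reads matching several genes is not given in any source used here. From the authors' deposited receptor tables, productive beta chains were counted per barcode.

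Barcodes with at least 2000 UMIs, 500 genes and at most 10% mitochondrial UMIs were kept, and no doublet caller was run. Each was put in the first gate it passed: at least 20 UMIs of MHC class II genes, 3 of proliferation genes, 1 of Foxp3, 1 of Rag1, 2 of Cd8a and Cd8b1, then Itm2a and S1pr1. Groups were compared as sums of UMIs, with exact Poisson intervals for levels, exact conditional binomial intervals for ratios and Clopper-Pearson intervals for shares, all 95%. Ratios were computed for all genes with at least 100 UMIs in both groups together. The folds used are 1.2, 1.5 and 2. Shares of barcodes with a member UMI were computed after thinning each barcode to 2000 UMIs, unless called unthinned. Shares of Isg15-high barcodes and of those with 2 or more beta chains were computed without thinning. For likeness, log2(CPM + 1) profiles over states were correlated by Pearson's r for genes with at least 500 UMIs, and those named are among the 5 highest. Beside the members, the genes named come from the further GTPases, of which only some are printed, the extremes of the other lists and the markers. Values of a few genes are not reported here. The scripts were tested on simulated data.

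Alternatives were other depth, mitochondrial and Isg15 cut-offs, thinning, other gates, subsets of barcodes and scaling by the factors of edgeR 4.0.16 (TMM) and DESeq2 1.42.0 (median of ratios) in R 4.3.3, which served for scaling only. Python 3.11.15, numpy 2.4.6, scipy 1.17.1 and pandas 2.3.3 did the rest. The members and lists were chosen with earlier results of these data known.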

Additional observations from a re-analysis of the deposited data

How the results depend on the processing

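No summed ratio of the 9 genes reversed under the settings listed here. The exception in a narrow subset is the barcodes within 200 UMIs above the depth threshold, with 446 CPM in Cgas KO and 381 in WT. The Cgas KO over WT sum, 0.863, was 0.884 with barcodes thinned to 2000 UMIs, 0.836 at 4000 UMIs or more, 0.902 in Isg15-negative barcodes and 0.90 with Cgas KO weighted to the WT Isg15 counts. The number of members 1.2-fold lower, 3, was 6 at 4000 UMIs or more and 1 under that weighting, with no share of all genes given for either. The Isg15-high over Isg15-negative sum in Cgas KO, 2.51, was 2.20 and 3.01 with 2 and 5 Isg15 UMIs as the threshold, 2.90 thinned, 2.83 with 1 beta chain and 2.59 under median-of-ratios scaling. In WT, 2.53 became 2.24, 2.93, 2.90, 2.81 and 2.62 under the same settings, 2.59 in conventional CD4 barcodes and 2.62 at 4000 UMIs or more. The mature over semi-mature sum in Cgas KO, 1.66, was 1.47 with Klf2 and Cd69 gates, 1.4 thinned, 1.85 in Isg15-negative barcodes, 1.76 at 4000 UMIs or more and 1.78 under median-of-ratios scaling. In WT, 1.65 became 1.38 with those gates (4 members past the fold instead of 7), 1.97 in Isg15-negative barcodes, 1.58 at 4000 UMIs or more and 1.75 under median-of-ratios scaling. In Isg15-high barcodes the mature over semi-mature sum was 1.42 in Cgas KO and 1.51 in WT. The cause of these shifts was not tested. Counts of all genes past the fold followed the UMI minimum most: 1578 between genotypes became 3608 with a minimum of 20 UMIs and 9357 with 1. With 20 UMIs, 186 and 135 genes past 2-fold by Isg15 in Cgas KO and WT became 581 and 440, and 1737 and 1900 past 1.5-fold by maturation became 3235 and 3359. Of the same counts, 186 was 104 in conventional CD4 barcodes, 1737 and 1900 were 1022 and 957 with Klf2 and Cd69 gates, and 1900 was 1258 thinned. Leaving out globin-rich barcodes or those with Zbtb16 or Tbx21, the weighting and the likeness without MHC class II-high barcodes were chosen after seeing the data. No paired analysis was possible because each genotype has 1 library and no replicate number, and no replicate could be left out. Counts under 100 UMIs, as for Gbp3 in mature barcodes, limit what can be seen there.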
